A study of Mus musculus with 14 samples.

Results

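The Schlafen genes are a family of growth-regulatory and antiviral genes that lie next to each other on mouse chromosome 11. The 7 members described here are Slfn1, Slfn2, Slfn3, Slfn4, Slfn5, Slfn8 and Slfn9. They were taken by name: every array probe whose accession RefSeq assigns to one of these symbols was counted in, and no measured value was used. This gave 11 probes out of 56605 non-control probes, with 3 probes for Slfn5, 2 each for Slfn8 and Slfn9, and 1 for each other member. All 11 passed the filter on dim probes (a signal clearly over background in 7 or more of 14 arrays), which kept 31766 probes in all and 14729 genes with a symbol.

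Spleen RNA of 7 WT and 7 Sting gt/gt mice was labelled with 1 dye and hybridised to 14 Agilent arrays, each holding 1 mouse. WT mice were purchased C57BL/6 mice, and Sting gt/gt mice carried the golden ticket allele, a single-nucleotide variant of Sting made by ENU mutagenesis in the C57BL/6 background, so the groups also differ in where the mice came from. Mice of both groups received chicken collagen type II (CII) with complete Freund's adjuvant (CFA) in the skin 2 weeks before the spleens were taken, so that no unimmunized mice are compared here. The labels give their age as 10 to 14 weeks, which the methods give as the age at injection. The cells were whole splenocytes after lysis of red blood cells. The question was whether loss of STING, the adaptor through which cytosolic DNA induces type I interferon, went with a different Schlafen RNA level.

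Schlafen genes are best known as genes induced by type I interferon and by microbial products in lymphocytes and myeloid cells. The short members Slfn1 and Slfn2 and the intermediate members Slfn3 and Slfn4 share the Schlafen core domain, and the long members Slfn5, Slfn8 and Slfn9 add a helicase-like region. Slfn2 is known for keeping T cells quiescent, and Slfn4 for its induction in activated macrophages. Type I interferon acts on target genes through the interferon-stimulated response element, or ISRE, which is bound by interferon regulatory factors.

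The promoters of the members fell into groups by sequence. Each RefSeq promoter of 300 bases runs from 250 bases before to 50 bases after the annotated start (GRCm38.p6, the build of the sequence table) and was found for 7 of 7 members. For Slfn8 the table lists 2 starts, and the first was used. The ISRE core, searched on both strands as TTTC, any 2 bases and TTTC, was present in Slfn5, Slfn8 and Slfn9 and in none of the other 4 members. Of all 32851 promoters of this length, 3.44% hold it. The core began 48 bases before the start in Slfn8 and 45 bases before it in Slfn9, and it lay on the minus strand 155 bases before the start in Slfn5. These 3 promoters are shown because the RNA levels of the same 3 genes varied together across mice at most of their probes, as given further on. Capitals mark the match, in Slfn5 as read on the strand of the gene.
Slfn8, chr11:83020761-83021060, minus strand: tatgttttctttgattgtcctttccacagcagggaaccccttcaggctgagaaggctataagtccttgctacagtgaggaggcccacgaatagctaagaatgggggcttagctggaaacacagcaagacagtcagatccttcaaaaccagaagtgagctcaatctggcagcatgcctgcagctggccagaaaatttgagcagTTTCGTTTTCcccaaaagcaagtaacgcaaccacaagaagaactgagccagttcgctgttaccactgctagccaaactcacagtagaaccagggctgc
Slfn9, chr11:82991781-82992080, minus strand: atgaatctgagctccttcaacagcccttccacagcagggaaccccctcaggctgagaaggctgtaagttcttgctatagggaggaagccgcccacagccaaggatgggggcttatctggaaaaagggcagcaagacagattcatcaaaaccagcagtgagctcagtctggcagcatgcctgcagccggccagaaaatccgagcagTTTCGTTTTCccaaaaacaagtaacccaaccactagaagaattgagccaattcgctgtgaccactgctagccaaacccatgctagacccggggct
Slfn5, chr11:82951852-82952151, plus strand: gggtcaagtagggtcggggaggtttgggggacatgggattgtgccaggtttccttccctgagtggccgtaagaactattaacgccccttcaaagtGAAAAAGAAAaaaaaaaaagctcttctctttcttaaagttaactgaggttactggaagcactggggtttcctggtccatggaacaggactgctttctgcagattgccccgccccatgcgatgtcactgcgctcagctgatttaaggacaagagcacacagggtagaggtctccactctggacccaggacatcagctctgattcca

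Slfn8 and Slfn9 also shared the longest run of identical bases between any 2 members, TCTGGCAGCATGCCTGCAGC, of 20 bases. Slfn1, Slfn2 and Slfn4 shared a different stretch. The run ACTTCCTGGAG began 74 bases before the start in Slfn1, 55 in Slfn2 and 73 in Slfn4, always on the strand of the gene, and 0.0731% of all promoters hold it on either strand. Its first 9 bases, ACTTCCTGG, were also found in Slfn3, 42 bases before the start, and in 0.843% of all promoters. Both runs were picked after the promoters had been compared with each other, so their shares are a description only. Between Slfn1 and Slfn4 the identity went on to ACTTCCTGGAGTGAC, 15 bases. The gamma-activated site, searched as TTCNNNGAA, was in 0 of the 7 promoters, against 8.30% of all promoters, which says only that these letters are not in these windows. The promoters with the longer run are printed with it in capitals.
Slfn1, chr11:83116570-83116869, plus strand: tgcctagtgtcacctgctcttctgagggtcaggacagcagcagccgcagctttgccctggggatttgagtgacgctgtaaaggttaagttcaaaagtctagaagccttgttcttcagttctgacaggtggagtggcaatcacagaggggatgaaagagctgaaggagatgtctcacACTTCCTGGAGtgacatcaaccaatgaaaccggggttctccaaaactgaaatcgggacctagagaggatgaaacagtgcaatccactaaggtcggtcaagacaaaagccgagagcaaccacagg
Slfn4, chr11:83174936-83175235, plus strand: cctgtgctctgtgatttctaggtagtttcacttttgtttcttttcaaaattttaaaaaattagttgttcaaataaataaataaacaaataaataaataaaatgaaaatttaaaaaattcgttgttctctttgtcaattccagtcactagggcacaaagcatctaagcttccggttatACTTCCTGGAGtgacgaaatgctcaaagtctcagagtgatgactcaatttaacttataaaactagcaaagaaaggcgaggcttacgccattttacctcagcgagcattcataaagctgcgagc
Slfn2, chr11:83064862-83065161, plus strand: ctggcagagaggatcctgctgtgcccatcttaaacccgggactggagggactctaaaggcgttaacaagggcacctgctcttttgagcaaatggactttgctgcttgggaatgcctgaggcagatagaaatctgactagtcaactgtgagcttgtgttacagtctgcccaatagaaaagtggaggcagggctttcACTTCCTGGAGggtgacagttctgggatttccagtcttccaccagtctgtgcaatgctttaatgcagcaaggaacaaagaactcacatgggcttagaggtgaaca

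Levels are given as log2 of the background-corrected signal minus the log2 of the 75th percentile of the same array, so 0 is the brightness of that percentile. Levels of different genes were not ranked against each other, since probes differ in how well they bind. The 2 Slfn9 probes were subtracted within a mouse only to follow that difference from array to array. The arrays had between 30781 and 34400 probes well above background, and the 75th percentile of the signal lay between 562 and 766. The arrays of replicates 1 to 3 of both groups were scanned on scan day 1 and those of replicates 4 to 7 on scan day 2. Slides that hold both genotypes exist on scan day 1 only: on scan day 2, all 4 Sting gt/gt arrays were on 1 slide with no WT array, so slide and genotype cannot be told apart there. The Sting1 probe ranged from 2.35 to 2.85 in WT mice (median 2.64), while Sting gt/gt mice spanned 2.45 to 2.77 (median 2.65), and a point mutation need not change this level. Sting gt/gt replicate 1 had the highest markers of red cell precursors of all 14 mice and low Schlafen levels. Genotype differences of member probes (14 arrays without covariates, or replicates 1 to 3) that move by over 1.5 times without it are given beside the result.

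No Schlafen probe passed the test between the genotypes over the 14 arrays. In limma, 0 of 11 probes had an unadjusted p under 0.05, against 3.43% of all tested probes (1091 of 31766), and the methods' t-test also called 0 of 11. All adjusted p-values were 0.99996. The groups were free of overlap at 0 of 11 probes, against 0.0472% of all tested probes. The difference (Sting gt/gt minus WT, log2) ran from -0.27 for a Slfn9 probe to 0.17 for Slfn1, with 7 probes higher and 4 lower and a median of 0.03, beside a median of 0.01 over all tested probes. With no scaling between arrays, 1 Slfn3 and 1 Slfn5 probe changed from higher to lower. With slide as a random or as a fixed block, 6 of 11 probes changed sign, among them Slfn2 (-0.0064 and -0.17) and Slfn9 A_55_P2110537 (0.02 and 0.03). The 95% intervals of all 11 probes held 0. The narrowest, that of a Slfn9 probe, reached 0.23 to each side, and the widest, that of the other Slfn9 probe, 0.77.

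**Figure D1:**
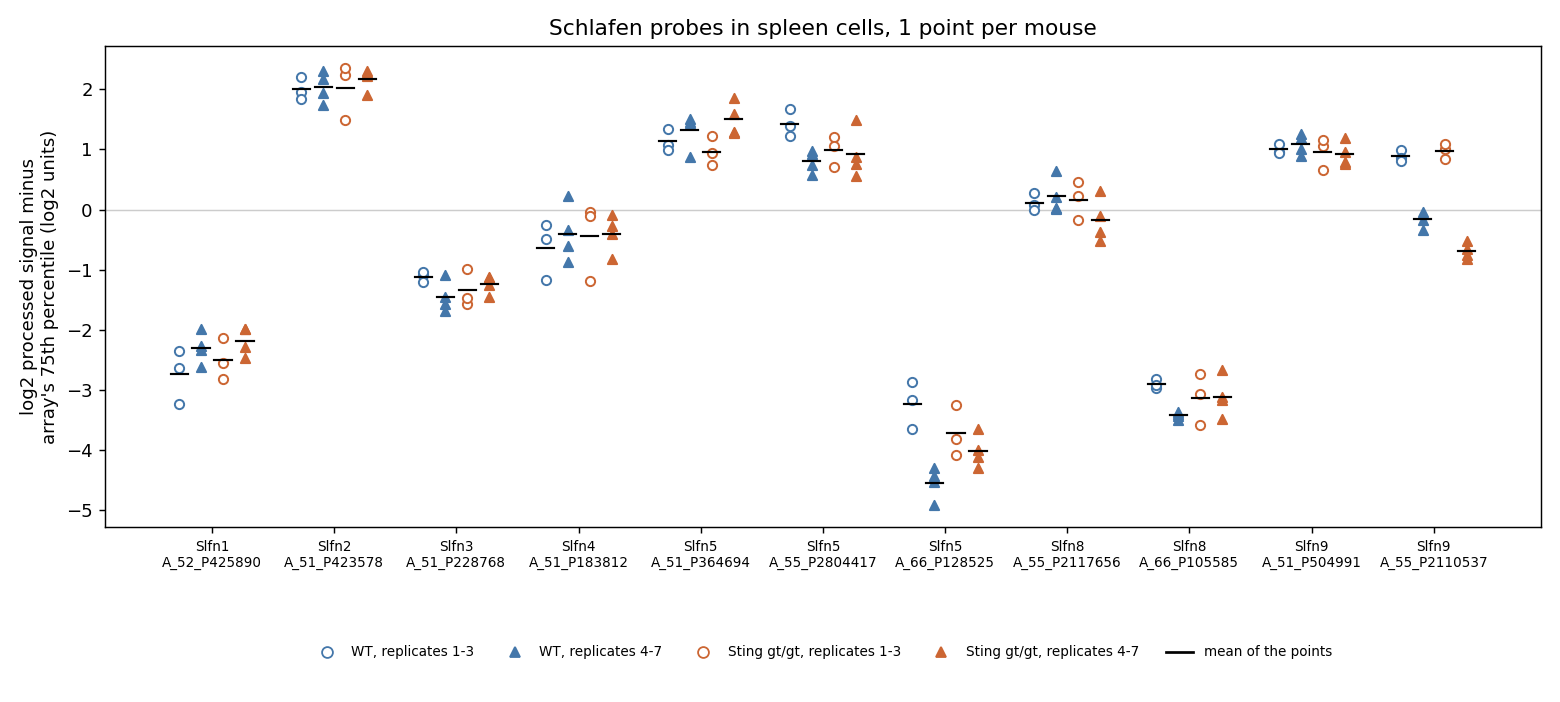
Level of each Schlafen probe in each mouse, as log2 signal minus the 75th percentile of the array (log2 units); circles are replicates 1 to 3, triangles replicates 4 to 7, blue WT, orange Sting gt/gt, and black lines the mean of the points. Over all 14 arrays the groups overlap at every probe. Among the triangles of Slfn9 A_55_P2110537 they do not, with WT between -0.34 and -0.04 and Sting gt/gt between -0.83 and -0.52.

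The short and intermediate members had 1 probe each. Slfn1, a suppressor of thymocyte growth when overexpressed, ranged from -3.23 to -1.99 in WT mice (median -2.34), while Sting gt/gt mice spanned -2.81 to -1.98 (median -2.28). The groups lay over each other, with the lowest value in WT replicate 3, and the difference was 0.17 (SE 0.18, n = 7 and 7, exact permutation p = 0.386). It was 0.05 (SE 0.16) without WT replicate 3. Slfn2, the quiescence factor of T cells, ranged from 1.74 to 2.31 in WT mice (median 1.96), while Sting gt/gt mice spanned 1.48 to 2.35 (median 2.24). Its lowest value was again that of 1 mouse, Sting gt/gt replicate 1. The difference was 0.09 (SE 0.14, 95% interval -0.22 to 0.39, exact permutation p = 0.547), 0.19 (SE 0.12) without that mouse and 0.05 (SE 0.15) without WT replicate 3.

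Slfn3, an intermediate member known from T cells and gut epithelium, ranged from -1.68 to -1.04 in WT mice (median -1.21), while Sting gt/gt mice spanned -1.57 to -0.98 (median -1.25). The difference was 0.02 (SE 0.13), and its interval from -0.26 to 0.31 was among the narrower ones of the family. It was 0.07 (SE 0.13) without Sting gt/gt replicate 1 and 0.04 (SE 0.14) without WT replicate 3. Slfn4, the macrophage-induced member, spread most widely of the single-probe members. It ranged from -1.18 to 0.23 in WT mice (median -0.50), while Sting gt/gt mice spanned -1.19 to -0.04 (median -0.28). Each group held 1 mouse near the bottom of this range, WT replicate 3 and Sting gt/gt replicate 1. The difference was 0.08 (SE 0.22, 95% interval -0.39 to 0.55), 0.21 (SE 0.20) without Sting gt/gt replicate 1 and -0.03 (SE 0.21) without WT replicate 3.

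The long members had several probes each. Slfn5, a nuclear protein of the interferon response, was read by 3 probes of 1 transcript. Probe A_51_P364694 ranged from 0.88 to 1.5 in WT mice (median 1.34), while Sting gt/gt mice spanned 0.74 to 1.86 (median 1.27), and probe A_55_P2804417 from 0.57 to 1.68 (median 0.97) and from 0.55 to 1.49 (median 0.87). Both overlapped almost fully, with differences of 0.03 (SE 0.17) and -0.12 (SE 0.18). The first was 0.12 (SE 0.16) without Sting gt/gt replicate 1 and -0.01 (SE 0.17) without WT replicate 3, and the second -0.07 (SE 0.19) without the latter. Leaving out any 1 array gave -0.21 to -0.02 for the second. The dim probe A_66_P128525 was well above background in 6 of 7 WT and 7 of 7 Sting gt/gt mice, and ranged from -4.91 to -2.87 (median -4.30) and from -4.30 to -3.24 (median -4.0), with a difference of 0.09 (SE 0.29), or 0.23 (SE 0.28) without WT replicate 3.

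Slfn8 was read by probes of 2 of its transcripts. The brighter, A_55_P2117656, ranged from -0.01 to 0.63 in WT mice (median 0.07), while Sting gt/gt mice spanned -0.52 to 0.45 (median -0.11). This was the smallest unadjusted p of the family, at 0.226 in limma (difference -0.20, SE 0.16, exact permutation p = 0.239). The probe A_66_P105585 of the other transcript ranged from -3.49 to -2.81 (median -3.37) and from -3.57 to -2.67 (median -3.12), with a difference of 0.08 (SE 0.16), or 0.16 (SE 0.16) without Sting gt/gt replicate 1 and 0.13 (SE 0.17) without WT replicate 3. Slfn9, the neighbour of Slfn8, ranged at probe A_51_P504991 from 0.89 to 1.26 in WT mice (median 1.0), while Sting gt/gt mice spanned 0.65 to 1.18 (median 0.95). It had the tightest interval of the family, from -0.34 to 0.12 around -0.11, which as a fold is 0.789 to 1.08 times the WT level, and the difference was -0.07 (SE 0.10) without Sting gt/gt replicate 1. The other Slfn9 probe, A_55_P2110537, differed by -0.27 (SE 0.36), by -0.40 (SE 0.37) without Sting gt/gt replicate 1 and by -0.18 (SE 0.38) without WT replicate 3. Leaving out any 1 array gave -0.44 to -0.12 for this probe.

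**Figure D2:**
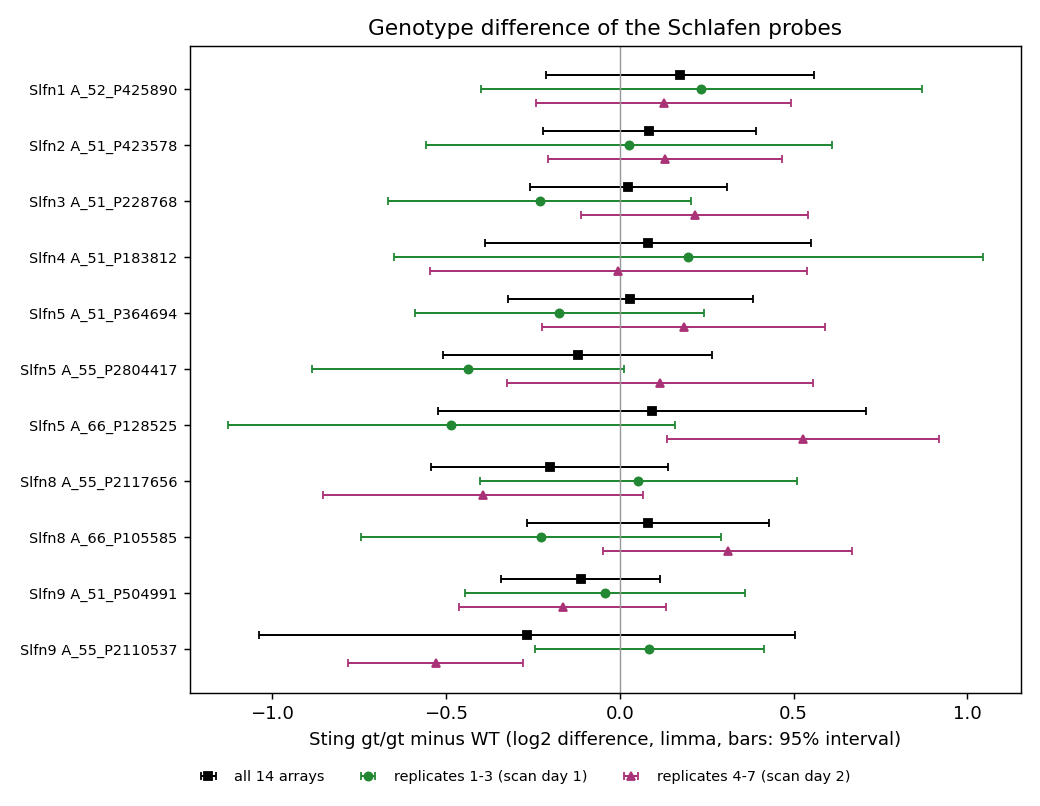
Sting gt/gt minus WT (log2, x axis) for each Schlafen probe in all 14 arrays (black squares), in replicates 1 to 3 (green circles) and in replicates 4 to 7 (purple triangles), with 95% limma intervals as bars. The black bars all cross 0, and of the purple bars those of Slfn5 A_66_P128525 (0.53) and Slfn9 A_55_P2110537 (-0.53) do not.

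Taken within the replicate sets, the picture differed by probe. In replicates 1 to 3, 0 of 11 probes passed, against 3.81% of all probes (1211 of 31766). The lowest p was that of Slfn5 A_55_P2804417, which read 1.22, 1.68 and 1.38 in WT and 0.71, 1.2 and 1.06 in Sting gt/gt mice. These groups did not overlap, as for 9.25% of all probes in these arrays, and the difference of -0.44 (SE 0.19) had a limma p of 0.0552 and an exact permutation p of 0.10, the smallest that 3 against 3 can give. In replicates 4 to 7, 2 of 11 probes passed, against 22.7% of all probes (7209 of 31766), so that the share of the members was near that of the array as a whole. After adjustment over all probes 0 of 11 passed, against 1.27% here and 0.00315% over the 14 arrays.

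The 2 probes moved in opposite directions. Slfn9 A_55_P2110537 read -0.08, -0.18, -0.34 and -0.04 in WT replicates 4 to 7 and -0.76, -0.83, -0.52 and -0.66 in Sting gt/gt replicates 4 to 7. The groups did not overlap, as for 14.2% of all probes in these arrays, and the difference was -0.53 (SE 0.11, limma p = 0.000974, adjusted p = 0.0554, exact permutation p = 0.0286, the smallest that 4 against 4 can give). Slfn5 A_66_P128525 read -4.42, -4.91, -4.30 and -4.53 in WT and -4.11, -4.30, -4.0 and -3.64 in Sting gt/gt mice. Here Sting gt/gt mice were higher by 0.53 (SE 0.17, limma p = 0.0138, adjusted p = 0.127, exact permutation p = 0.0571), with 1 Sting gt/gt value at the top of the WT range.

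Other probes of the same genes gave smaller values. In the same 8 arrays the second Slfn9 probe, A_51_P504991, read 1.18, 1.0, 0.89 and 1.26 in WT and 0.95, 0.75, 0.79 and 1.18 in Sting gt/gt mice. These groups overlapped, and the difference was -0.16 (SE 0.13, 95% interval -0.46 to 0.13). The other Slfn5 probes differed by 0.18 (SE 0.18) and 0.11 (SE 0.20). A gap between 2 probes as large as that of Slfn9 here (0.37) was found in 13.3% of 6153 pairs of tested probes with 1 accession. The Slfn8 probes had opposite signs, -0.39 (SE 0.20) for A_55_P2117656 and 0.31 (SE 0.16) for A_66_P105585, and neither passed.

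The genotype difference of these 2 probes changed between the replicate sets in the unadjusted tests. For Slfn9 A_55_P2110537 it went from 0.09 (SE 0.14) in replicates 1 to 3 to -0.53 in replicates 4 to 7, a change of -0.62 (SE 0.16, limma p = 0.00215, adjusted p = 0.0881, exact permutation p = 0.00714 over 1400 ways). Its value in replicates 1 to 3 was 0.16 (SE 0.15) without Sting gt/gt replicate 1. For Slfn5 A_66_P128525 it went from -0.48 (SE 0.27) to 0.53, a change of 1.01 (SE 0.33, limma p = 0.00896, adjusted p = 0.144, exact permutation p = 0.0229). Here the value in replicates 1 to 3 was -0.30 (SE 0.28) without Sting gt/gt replicate 1. Such a change passed the unadjusted limma threshold at 2 of 11 Schlafen probes, beside 17.7% of all probes, and the adjusted one at 0 of 11, beside 0.286%. The exact permutation takes no genotype effect in either set as its null, not an equal effect in both.

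In replicates 4 to 7 the marker genes of some cell types differed as well. Of the B-cell markers, 6 of 8 were lower in Sting gt/gt mice (among them Ms4a1, the gene of a B-cell surface protein, with -0.49), of the erythroid markers 5 of 6 were lower, and of the plasma-cell markers 3 of 5 were higher, at an unadjusted p under 0.05 in limma, beside 11.9% of all probes lower and 10.8% higher. At the same threshold 0 of 8 T-cell, 0 of 8 monocyte and macrophage and 0 of 5 NK-cell markers passed. Of the neutrophil markers, 1 of 7 passed, as higher. In replicates 1 to 3 the B-cell markers had a median difference of 0.25, with 1 of 8 lower and 1 passing (Fcer2a, higher by 0.57). In bulk cells, fewer cells of a type and less RNA per cell cannot be told apart. The part of these shifts in the Slfn9 and Slfn5 values was not tested.

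The largest signal change of any Schlafen probe lay between scan days and not between genotypes. With genotype in the model, Slfn9 A_55_P2110537 was lower on scan day 2, with a difference of -1.35 (SE 0.11, limma adjusted p = 8.6e-07). On scan day 1 it read 0.99, 0.86 and 0.81 in WT and 0.83, 1.0 and 1.08 in Sting gt/gt mice, above all 8 arrays of scan day 2, whose highest was -0.04. The second Slfn9 probe, of the same transcript, differed by 0.02 (SE 0.10). Hence the difference between the 2 probes of Slfn9 in the same mouse was between -0.23 and 0.18 on scan day 1 and between -1.84 and -1.18 on scan day 2. A gap of 1.38 or more between the scan-day differences of 2 probes with 1 accession was seen in 2.36% of 6153 pairs, or 2.94% of 4427 transcripts.

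Slfn5 showed the same kind of disagreement. Its probes differed by 0.36 (SE 0.14), -0.35 (SE 0.16) and -0.81 (SE 0.21) between scan days, in the order A_51_P364694, A_55_P2804417 and A_66_P128525, and only the last passed after adjustment (limma adjusted p = 0.00712). In all, 2 of 11 Schlafen probes differed by scan day after adjustment, beside 39% of all tested probes (12389 of 31766). In the log2 table that the authors deposited for the same arrays, the median size of the scan-day difference over probes was 0.0646, beside 0.269 in the scanner signals, and Slfn9 A_55_P2110537 differed between scan days by -0.04. In that table the 2 Slfn9 probes still differed in replicates 4 to 7, with -0.44 (limma adjusted p = 0.0605) for A_55_P2110537 and -0.19 (limma adjusted p = 0.414) for A_51_P504991.

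With scan day as a term, 1 of 11 Schlafen probes passed, beside 7.32% of all probes. It was Slfn9 A_55_P2110537, with the same difference of -0.27 at an SE of 0.11 instead of 0.36 (limma p = 0.0335, adjusted p = 0.677, exact permutation p within scan days = 0.0400). The difference lay in replicates 4 to 7 (-0.53) and was 0.09 in replicates 1 to 3, or 0.16 there without Sting gt/gt replicate 1.

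**Figure D3:**
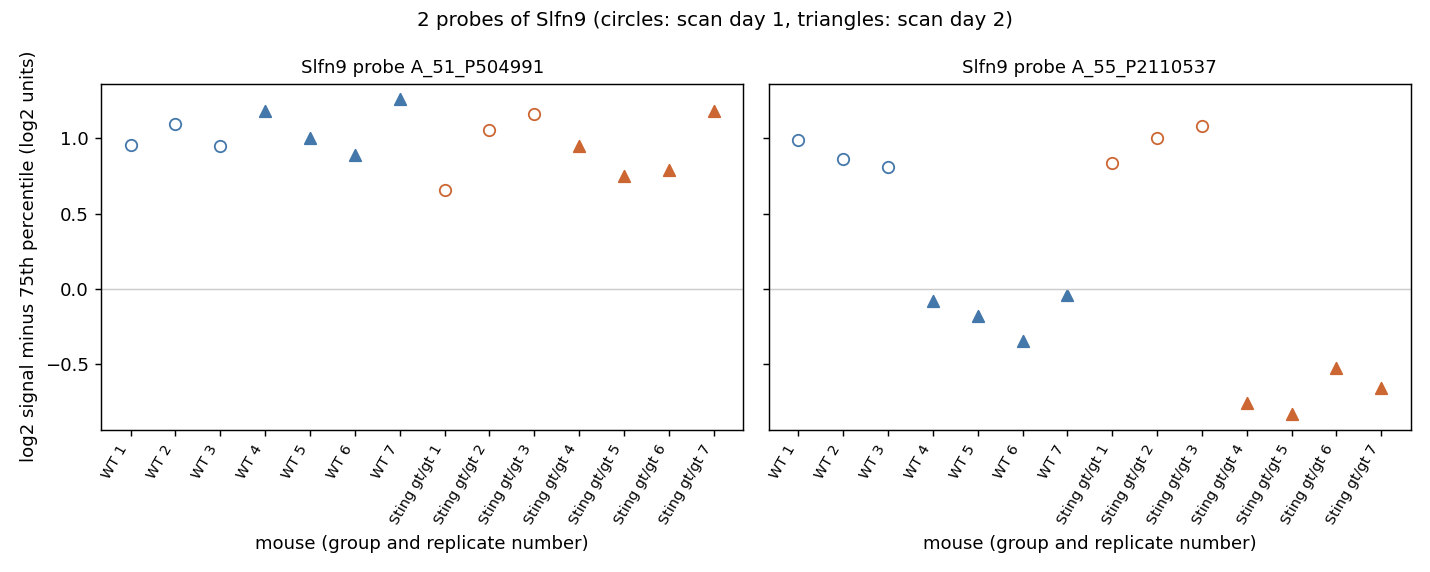
Level of the 2 Slfn9 probes in each mouse (log2 signal minus the 75th percentile of the array); circles are scan day 1, triangles scan day 2, blue WT, orange Sting gt/gt. At A_51_P504991 both days lie between 0.65 and 1.26, while at A_55_P2110537 the lowest value on scan day 1 is 0.81 and the highest on scan day 2 is -0.04.

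Schlafen genes varied from mouse to mouse in 2 patterns once the group means were removed. The mean of each genotype on each scan day was taken off every probe, and the remainders were correlated over the 14 arrays. The values share arrays and scaling, so the correlations are a description. Over the 55 pairs of Schlafen probes the median r was 0.42, with a range from -0.27 to 0.88, and 23 pairs were over 0.50. Pairs of other probes were not counted this way, so how common such values are on these arrays is not known. Without Sting gt/gt replicate 1 the median of the Schlafen pairs was 0.27 and 15 of these pairs were over 0.50. This mouse had the lowest value of the 3 Sting gt/gt replicates 1 to 3 at 11 of 11 Schlafen probes, beside 38.2% of all probes. The part of its low values in this drop was not tested.

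Most pairs of long-member probes were in the first pattern. Slfn8 A_55_P2117656 and Slfn9 A_51_P504991 had r = 0.88 (0.87 without Sting gt/gt replicate 1), and Slfn9 and the Slfn5 probe A_55_P2804417 had r = 0.84 (0.83). The Slfn5 probes correlated with each other at 0.62 to 0.81, the Slfn8 probes at 0.66, and the Slfn9 probes at 0.59. Slfn9 A_55_P2110537 was apart from the Slfn5 probes, with 0.25, 0.33 and 0.07. To the Slfn8 probes A_55_P2117656 and A_66_P105585 it had 0.49 and 0.54, and to Slfn2 0.70. Slfn8 A_55_P2117656 had 0.28 to Slfn5 A_66_P128525. Slfn5, Slfn8 and Slfn9 are the genes whose promoters hold the ISRE core, and Slfn8 and Slfn9 those with the 20-base run in common.

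Slfn1 and Slfn4 formed the second, with r = 0.84 (0.83). With the long members Slfn1 correlated at -0.13 to 0.54, the highest being the Slfn9 probe A_55_P2110537. Slfn2 was between the groups, with 0.73 to Slfn9 A_51_P504991, 0.55 to Slfn1 and 0.52 to Slfn4. Without Sting gt/gt replicate 1 these values were 0.60, 0.47 and 0.30. Slfn3 followed none of them closely, with 0.42 to Slfn4 at most and -0.27 to Slfn8 A_55_P2117656, although its promoter holds the shorter run of Slfn1, Slfn2 and Slfn4.

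**Figure D4:**
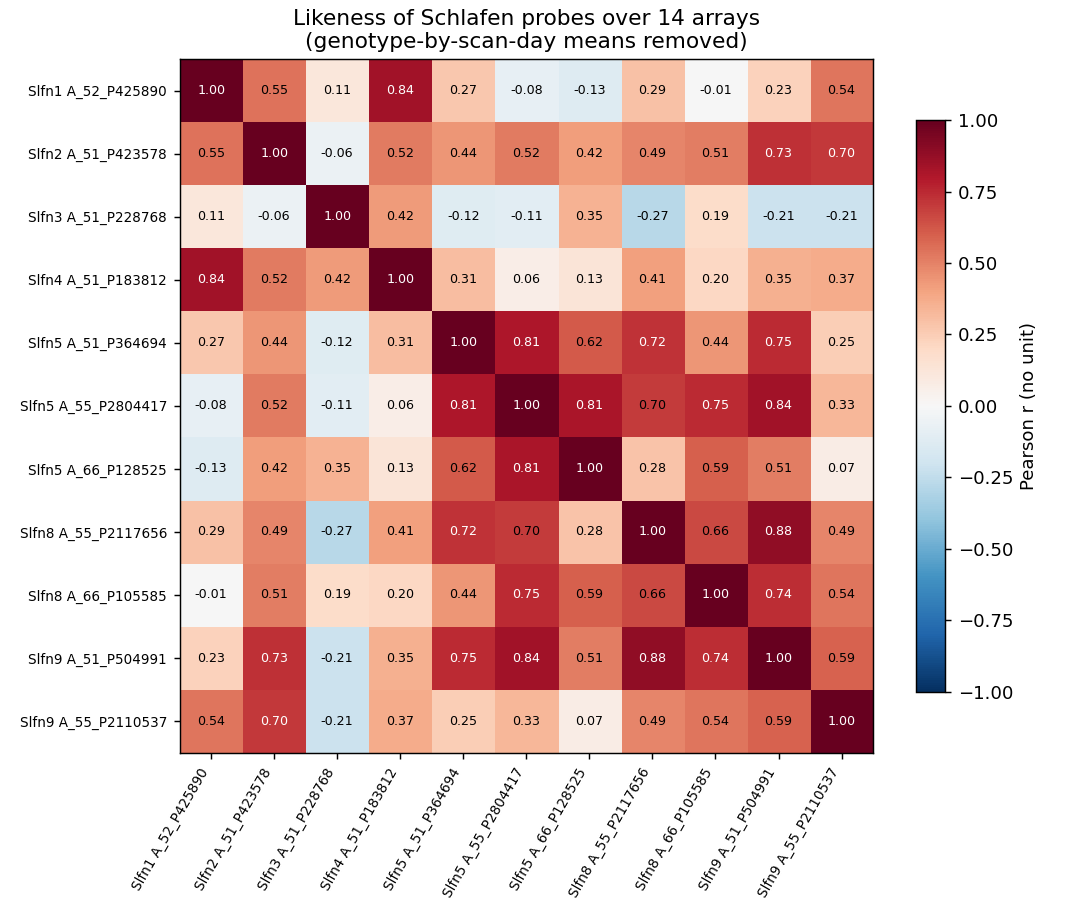
Pearson r between each pair of the 11 Schlafen probes over 14 arrays, after the mean of each genotype on each scan day was removed (colour from -1, blue, to 1, red; values printed in the cells). The lower right holds Slfn5, Slfn8 and Slfn9, with values from 0.07 (Slfn9 A_55_P2110537 with Slfn5 A_66_P128525) to 0.88 (Slfn8 with Slfn9), and Slfn1 and Slfn4 stand out on their own with 0.84.

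The genes outside the family that followed each member most closely were mostly different from member to member, with Ifi208 shared by Slfn8 and Slfn9. For Slfn9 they were Mndal (r = 0.99), Trim30a (0.98) and Ifi208 (0.98), and for Slfn8 the RIKEN gene 4930426D05Rik (0.96), Trim34a (0.95) and Ifi208 (0.95). Mndal and Ifi208 belong to the interferon-inducible p200 family, and Trim30a and Trim34a to the interferon-inducible TRIM genes. For Slfn5 they were Etfbkmt (0.93), Spata6 (0.93) and Proser1 (0.91). For Slfn1 they were Arpc2 (0.93), a part of the actin-branching complex, Slc31a2 (0.91), a copper transporter, and Pira2 (0.91), a paired immunoglobulin-like receptor of myeloid cells. For Slfn4 they were Phkb (0.94), Casp4 (0.93), an inflammatory caspase, and Lzic (0.92). Those of Slfn2 were LOC105247294 (0.95), Prkci (0.95) and Fads6 (0.95), and those of Slfn3 were Nol10 (0.93), Poli (0.91) and Exoc2 (0.90). These are the 3 highest values among all named genes on the array, so they are high by choice.

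Slfn2 ran opposite to the markers of red cell precursors. The 6 erythroid markers (among them Alas2, Klf1, Epor, Rhag and Slc4a1) were well above background on all 14 arrays although red cells had been lysed. Their mean level ranged from 4.02 to 4.64 in WT mice (median 4.41), while Sting gt/gt mice spanned 3.62 to 4.91 (median 3.91), with the top value in Sting gt/gt replicate 1. With the group means removed as above, Slfn2 had r = -0.94 and Spearman's rho = -0.91 to this level over 14 arrays. The r was -0.90 without Sting gt/gt replicate 1, -0.89 without the 2 mice farthest from the median, -0.98 within scan day 1 (6 arrays) and -0.89 within scan day 2 (8 arrays).

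Among 88 pairs of a Schlafen probe and a list (7 lists of cell-type markers and 1 of interferon-stimulated genes), 4 had an r beyond 0.80 in size. The other 3 all concerned Slfn9: A_51_P504991 with the erythroid markers (-0.83) and the B-cell markers (0.81), and A_55_P2110537 with the plasma-cell markers (0.84). With erythroid markers, 10 of the 11 Schlafen probes had a negative r, all but Slfn3 (0.03). The share of all tested probes with a negative r to these markers was not computed. Neither this count nor the r of Slfn2 is therefore shown to be particular to the family. Slfn8 A_55_P2117656 was the member closest to the interferon-stimulated list, with r = 0.72 (rho = 0.64), and had 0.76 to the B-cell markers. To the interferon-stimulated list the Slfn9 probes had 0.46 and 0.14, the Slfn5 probes 0.37, 0.32 and 0.17, and the other Slfn8 probe 0.42. Of the members without the ISRE core, Slfn4 had 0.44, Slfn1 0.17, Slfn2 0.16 and Slfn3 -0.07. The values of genes with and without the core thus overlapped, and the part of the core in them was not tested. The part of cell make-up in any Schlafen value was not tested.

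**Figure D5:**
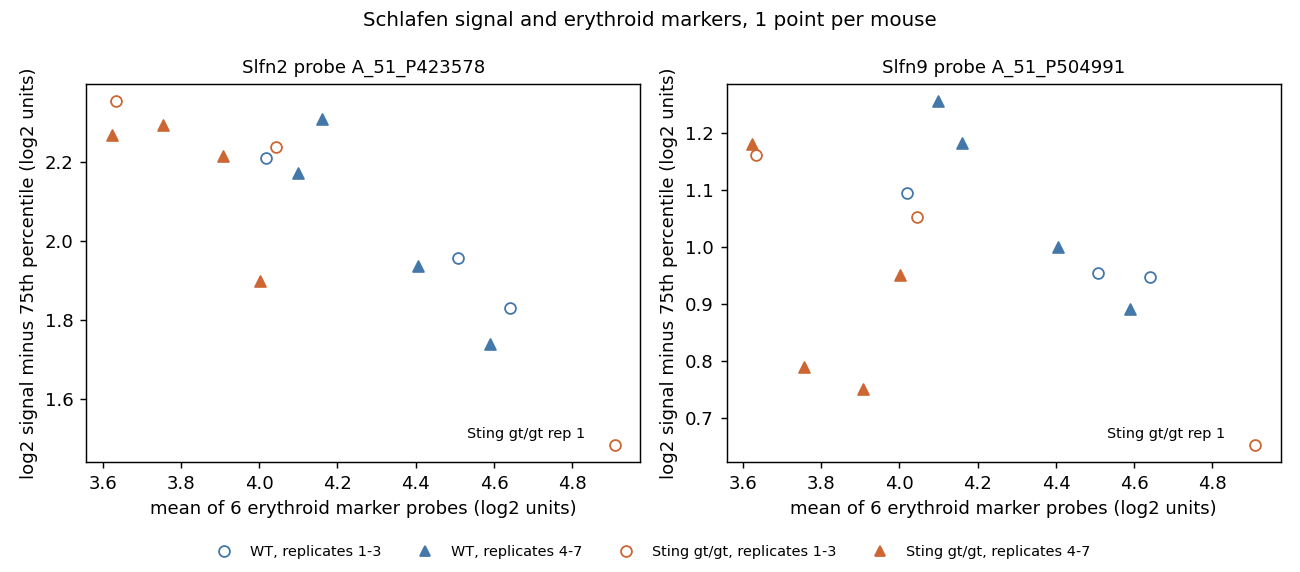
Level of Slfn2 (left) and Slfn9 A_51_P504991 (right) against the mean level of 6 erythroid marker probes in each mouse (log2 units, 75th percentile of the array set to 0; group means not removed). Sting gt/gt replicate 1, at 4.91 on the x axis, has the lowest value of both genes, 1.48 and 0.65.

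As a wider view of the pathway, 26 interferon-stimulated genes were read, of which 24 had a tested probe. Over the 14 arrays the Sting gt/gt level was lower for 20 of the 24 and higher for 4, and the median difference was -0.13, beside 0.01 over all tested probes. The fall passed the unadjusted threshold in limma for Herc6 (-0.32, SE 0.12), a ligase that attaches ISG15, and Parp14 (-0.28, SE 0.10), an ADP-ribosyltransferase, beside 1.67% of all probes that were lower, and for 0 of 24 after adjustment (both adjusted p = 0.99996). In replicates 1 to 3, 23 of 24 were lower and 0 passed. The mean level of the list there was 2.14, 1.75 and 2.16 in WT and 1.60, 1.94 and 1.87 in Sting gt/gt mice, lowest in Sting gt/gt replicate 1. In replicates 4 to 7, 17 of 24 were lower, with 4 passing lower (Herc6, Isg15, Parp14 and Rsad2) and 2 passing higher (Bst2 and Zbp1), beside 11.9% and 10.8% of all probes. The brightest Slfn9, Slfn8 and Slfn5 probes, set beside this list, gave -0.11, -0.20 and 0.03 over 14 arrays, none of them past the threshold.

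The other genes named Slfn were read too. The annotated order along chromosome 11 was Slfn5, Slfn9, Slfn8, Slfn10-ps, Slfn2, Slfn1, Slfn4 and Slfn3, and RefSeq lists 14 genes from Slfn5 to Slfn3, both included. Of the 7 that are no members, 1 had a tested probe, the transcribed pseudogene Slfn10-ps, and it differed by -0.07 (SE 0.15) and 0.04 (SE 0.13) at its 2 probes. The nearest tested neighbours outside the cluster, Unc45b and AI662270, differed by -0.06 (SE 0.15) and 0.04 (SE 0.23). Probes of Slfn5os, which runs antisense to Slfn5, and Slfnl1 were well above background on 0 of 14 arrays.

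Slfn14, a ribosome-bound ribonuclease known from platelets and red cell precursors, had the largest genotype difference over the 14 arrays of any tested gene named Slfn. It ranged from -1.23 to -0.19 in WT mice (median -1.01), while Sting gt/gt mice spanned -2.25 to -0.69 (median -1.19). WT was higher on average on both scan days, with a difference of -0.43 (SE 0.18, limma p = 0.0468, exact permutation p = 0.10) in replicates 1 to 3 and -0.52 (SE 0.20, limma p = 0.0265, exact permutation p = 0.0571) in replicates 4 to 7. Over the 14 arrays the difference was -0.48 (SE 0.23, limma p = 0.0517, exact permutation p = 0.0705), and with scan day as a term its SE was 0.14 (limma p = 0.00357, adjusted p = 0.570). The erythroid markers moved with it: 6 of 6 had a lower Sting gt/gt level (median difference -0.36), and with group means removed Slfn14 had r = 0.56 to their mean level over 14 arrays. Its r was larger in size to the NK-cell markers (-0.77, rho = -0.70).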

How the data were processed

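Splenocyte RNA of 7 WT and 7 Sting gt/gt mice was labelled with 1 dye and hybridised to Agilent arrays, each holding 1 mouse. The deposited intensity values came from version 11.0.1.1 of Agilent's Feature Extraction software, as the submitters' processing notes name it, in which the local background of a spot is corrected but arrays are not scaled to each other. A table of log2 values was deposited too, whose column medians were 5.49 to 5.52 and whose values correlated with the log2 intensity of the same array at 0.997 to 0.999. Its log2 scale follows from that, and how it was normalized or centred between arrays is not given in the sources used here.

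From the log2 of the processed intensity, the array's 75th percentile over non-control spots was subtracted. Outlier-flagged spots were dropped before repeated spots were averaged. The test covered 31766 of 56605 probes, those with a signal clearly over background in 7 or more of 14 arrays of either group. Probes were named by accession through a RefSeq table of another build than the array design, so only names and order were taken from it. A symbol was found for 32994 probes (58.3%). The column of probe sequences was not used here, so whether a Schlafen probe binds a related transcript is unknown. Genes outside the family were read from their brightest tested probe. Single values of some listed genes are not reported here.

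Groups were compared per probe by limma 3.58.1 in R 4.3.3, without covariates, at an unadjusted p under 0.05 as in the study, with Benjamini-Hochberg adjustment over all tested probes. Single probes were also compared by two-sided exact permutation tests over 3432 ways, or 1400 ways within scan days. For a change between replicate sets, the permutation takes no genotype effect in either set as its null, not an equal effect in both. The fits were tested on simulated data. The Schlafen members, the gene lists and the rule for named genes (all Slfn genes, their neighbours, the 3 genes most alike to each member's brightest probe, and listed interferon-stimulated genes past the threshold) were chosen with earlier results of these data known. Alternatives covered the scaling, the background correction, the authors' table, the filter, the flags, the probes per gene, the test, the replicate number, scan day, slide and each array left out. For normexp (offset 50) the median spot signal was used. The number of arrays limits the precision, and nothing says whether mice were housed or handled separately, so p-values measure the spread between these samples.

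In both groups replicates carry the numbers 1 to 7. Centred on the group mean, the WT and the Sting gt/gt array of one number had correlations of 0.15 to 0.52. The number also sets the scan day, and once scan-day means were removed the correlations were -0.40 to 0.28. Beyond the scan day, same-numbered arrays thus did not deviate together throughout. With the replicate number as a block, 1825 probes passed in place of 1091, and 0 of 11 Schlafen probes. Figures were drawn with matplotlib 3.10.9, and tables were made with numpy 2.4.6 and pandas 2.3.3 under Python 3.11.15.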

Additional observations from a re-analysis of the deposited data

Results flagged for a closer look

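The genotype difference of 2 Schlafen probes differed between replicates 1 to 3 and 4 to 7. Slfn9 probe A_55_P2110537 changed by -0.62 on the log2 scale (two-sided exact permutation p = 0.00714, limma adjusted p = 0.0881), from 0.09 to -0.53, while the second Slfn9 probe changed by -0.12 (exact permutation p = 0.567). Slfn5 probe A_66_P128525 changed by 1.01 (two-sided exact permutation p = 0.0229, limma adjusted p = 0.144), from -0.48 to 0.53, and the other Slfn5 probes by 0.36 and 0.55 (exact permutation p = 0.183 and 0.114). In all 11 probes were tested this way, and neither change passed after adjustment over all tested probes. The exact test takes no genotype effect in either set as its null. Without Sting gt/gt replicate 1, the differences in replicates 1 to 3 were 0.16 for Slfn9 A_55_P2110537 and -0.30 for Slfn5 A_66_P128525. The arrays of the sets were scanned on different days, and in replicates 4 to 7 slide and genotype cannot be told apart. In 22 groups of 7 arrays, 0 Schlafen values lay outside their group by the criterion for a single far sample, which chance passes in about 1 in 20 groups.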

How the results depend on the processing

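Under 29 alternative settings, the single-probe differences kept their direction and their side of the threshold in 284 of 314 values, with 28 turned in sign and 2 newly past the threshold. The cause of these changes was not tested. Probes of small difference turned: without scaling between arrays Slfn3 (-0.030) and Slfn5 A_51_P364694 (-0.023), and with array weights and an intensity trend Slfn5 A_55_P2804417 (0.00078). With slide as a random block, Slfn3 (-0.068), Slfn5 A_51_P364694 (-0.13), Slfn2 (-0.0064), Slfn9 A_55_P2110537 (0.015), Slfn8 A_66_P105585 (-0.055) and Slfn5 A_66_P128525 (-0.085) turned. With slide as a fixed block, which rests on the 2 slides with both genotypes, the same 6 probes gave -0.19, -0.29, -0.17, 0.029, -0.31 and -0.50, and none passed. With 1 array left out, differences ran from -0.038 to 0.073 for Slfn3, -0.030 to 0.21 for Slfn4, -0.067 to 0.12 for Slfn5 A_51_P364694 and -0.062 to 0.28 for Slfn5 A_66_P128525, and 0 of 11 Schlafen probes passed each time. Without a turn in sign, Slfn9 A_55_P2110537 ran from -0.44 to -0.12 and Slfn5 A_55_P2804417 from -0.21 to -0.020.

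The number of Schlafen probes past the threshold over 14 arrays (0) became 1 with array weights (Slfn8 A_55_P2117656, -0.30, limma adjusted p = 0.274) and 1 with scan day as a term. In replicates 1 to 3 it was 0, and 1 with each array's median at 0, without scaling, with normexp or with the stricter filter. With 1 array left out it was 0 to 3, with Slfn5 A_55_P2804417 (-0.54) and A_66_P128525 (-0.69) passing without WT replicate 1, and these (-0.54 and -0.72) and Slfn3 (-0.41) without Sting gt/gt replicate 2. In replicates 4 to 7 it was 2. It was 3 with quantile normalization, with each array's median at 0 and in the authors' table, where Slfn8 A_66_P105585 passed too (0.36, 0.35 and 0.35). The number was 1 with normexp (Slfn9 A_55_P2110537, adjusted p = 0.0490) and 1 with the stricter filter, which drops Slfn5 A_66_P128525. It was 0 with 1 probe per gene, and 2 to 3 with 1 array left out. Slfn8 A_66_P105585 passed without Sting gt/gt replicate 5 (0.44), Slfn8 A_55_P2117656 without Sting gt/gt replicate 7 (-0.55) and Slfn3 without WT replicate 6 (0.33). The adjusted p of Slfn9 A_55_P2110537 there ran from 0.0436 to 0.134 with 1 array left out. Changes between replicate sets that passed after adjustment stayed at 0. Scan-day differences (2 of 11) were 4 with each array's median at 0, 0 in the authors' table, 0 with 1 probe per gene, and 2 to 4 with 1 array left out (4 without Sting gt/gt replicate 1 or 7).

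Over all probes, 1091 passed, and 2455 in the authors' table, 5728 with array weights, 1825 with the replicate block, 2325 with scan day, 591 with slide as a random block, and 624 to 2457 with 1 array left out (2457 without Sting gt/gt replicate 1, 663 without replicate 5, 624 without replicate 6). The methods' t-test called 1263 probes at an unadjusted p under 0.05 and 0 after adjustment. The replicate block changed no Schlafen call. Interferon-stimulated genes past the threshold (2 of 24) were 5 with array weights, 1 with slide as a random block, 1 with slide as a fixed block and 2 to 4 with 1 array left out (4 without Sting gt/gt replicate 1 or 2).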
